A study of Arabidopsis thaliana with 17 samples.

Results

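The genes described here encode proteins of the large (60S) subunit of the cytosolic ribosome in Arabidopsis thaliana, from the families named L3 to L26. A list of 60 loci in 24 families was the starting point. A locus became a member when the annotation of the array gave it a probe set (a group of short probes on the array that measures 1 transcript) that names no other gene. There were 35 such members in 17 families, on an array of 22810 probe sets, and none had more than 1 such probe set. Of the other 25 loci, 4 lay on probe sets shared by several genes, and the families L3, L5, L10, L11, L23, L23a and L24 have no member. The dimmest 40% of all probe sets were left out of testing by their mean over all arrays, and 33 of the 35 members passed that filter.

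The large subunit joins amino acids at its peptidyl transferase centre, which is made of ribosomal RNA, and releases the growing protein through an exit tunnel. Its proteins fold and hold the RNA, line parts of the tunnel, and form the stalks at which transfer RNAs and elongation factors enter and leave. In Arabidopsis nearly every such protein is encoded by a small family of paralogous genes, and in leaves their transcripts are known to follow growth and the supply of light and sugar. The family names used below follow the usual nomenclature of plant ribosomal proteins and are background knowledge.

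The study hybridised 17 ATH1 arrays, each with 5 µg of total RNA from the rosette leaves of 10 pooled plants that were 4 weeks old. The mutations lie in STN7, the gene of the thylakoid protein kinase of state transitions and the long-term response to light quality, and in PSAD1 and PSAE1, which encode stromal subunits of photosystem I and each have another gene copy that was not mutated. The labels name no array sets. The arrays were parted into 2 sets by the trimmed mean of their deposited signals, about 100 or about 500. The first array set held stn7-1 (3 arrays), psad1-1 (2 arrays), the double mutant psad1-1 stn7-1 (3 arrays) and the wild type Col-0 (3 arrays). The second array set held psae1-3 (2 arrays), the double mutant psae1-3 stn7-1 (2 arrays) and the wild type Wassilewskija (2 arrays). The labels name no treatment, and they do not give the parent accession of a mutant or whether a genotype rests on 1 line. Each mutant was compared with the wild type of its own array set, because no genotype was on arrays of both sets, so that array set and accession are confounded and cannot be told apart.

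Values are the authors' signal intensities, each array scaled to a 2% trimmed mean of 100, so a signal is relative to the array as a whole. The deposited trimmed mean, by which the sets were parted, was 100 on the 11 arrays of the first set and 500 on the 6 arrays of the second. Scaled array medians lay between 33.5 and 39.1 for the first set and between 29.3 and 33.5 for the second. Background was set at a signal of 8.15, below which 95% of 315 readings of targetless control probe sets fell. Of the mutated genes, PSAE1 had a named probe set. Its signal was 23.7 and 63.2 in psae1-3, 5.25 and 10.4 in psae1-3 stn7-1, against 4913 and 5105 in Wassilewskija. As a check of the labelled leaf tissue, RCA (AT2G39730), the Rubisco activase of mesophyll cells, read 3559 to 6704 over the 17 arrays. RCA and FAMA (AT3G24140), a guard cell marker that read 33.97 to 64.47, passed in no mutant against its wild type, and 0 of the phloem and inflorescence markers were tested. RCA was the 1 tested of 4 mesophyll markers, and FAMA the 1 tested of 6 epidermis and guard cell markers. Each array is a bulk sample of leaf tissue, in which fewer cells of a type and less RNA per cell cannot be told apart. The small number of arrays limits the precision.

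A change is a difference of log2 signals from a limma fit to all 13647 tested probe sets over all 17 arrays, and a gene passed at a Benjamini-Hochberg adjusted p below 0.05 over all of them, two-sided. SE is that of the fitted change, and SD that of signals between arrays of a genotype. The 2 members left out of the test were AT3G51190 (L8), whose signals lay between 8.42 and 29.8, and AT3G48960 (L13), whose signals lay between 3.13 and 19.7 and fell below background on 9 of the 17 arrays. The other 33 had mean signals of 101 to 1679 in Col-0 and 62 to 1170.0 in Wassilewskija. Signals of different probe sets are not compared with each other, since each set of probes has its own response. All 35 probe sets have the plain name ending that the maker gave to sets designed for a single transcript, and binding by transcripts of a paralogue was not tested.

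In stn7-1, the large subunit genes were higher than in Col-0 almost as a block. Of the 33 tested members 29 passed as higher and 0 as lower by limma, where 9.74% of all tested probe sets passed as higher, 9.17% as lower and 18.9% in either direction. At an unadjusted p below 0.05 the counts were 32 higher and 0 lower, where 15.8% of all tested probe sets were higher. The median change of the 33 was 0.74, against -0.03 over all tested probe sets, and the changes ran from 0.13 to 1.17. For 32 of 33 members all stn7-1 arrays lay above all Col-0 arrays, as they did for 17.7% of all tested probe sets.

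The largest change was that of AT2G44120, a gene of the L7 family. Its signal was 598, 885 and 854 in stn7-1, against 391, 278 and 362 in Col-0. The groups did not overlap, and stn7-1 array A was the lowest of the stn7-1 arrays. The means were 779 ± 158 and 343 ± 58.3 (SD, n = 3 each) for a change of 1.17 (SE 0.24, limma adjusted p = 0.00367). AT5G22440 encodes L10a, the protein of the L1 stalk, the mobile arm of the subunit that guides used transfer RNA out of the ribosome. It read 251, 351 and 273 in stn7-1, against 144, 111 and 147 in Col-0, a change of 1.12 (SE 0.21, adjusted p = 0.00215). Its lowest stn7-1 array was well above its highest Col-0 array.

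AT4G10450 (L9) and AT4G17390 (L15) followed. AT4G10450 read 286, 379.9 and 353 in stn7-1, against 172, 137 and 168 in Col-0, and rose by 1.09 (SE 0.24, adjusted p = 0.0058). AT4G17390 read 1105, 1476 and 1350.3 in stn7-1, against 778, 512 and 635 in Col-0, and rose by 1.04 (SE 0.21, adjusted p = 0.00407). For both genes Col-0 array B was the lowest of all 6 arrays.

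The 4 members that did not pass in stn7-1 were AT4G27090 (L14), AT3G13580 (L7), AT3G49910 (L26) and AT1G80750 (L7). AT4G27090 read 1871, 1831 and 1763 in stn7-1, against 1426, 1597 and 2015 in Col-0, and was the 1 member whose groups overlapped (change 0.13, SE 0.15, adjusted p = 0.577). AT3G13580 read 263, 274 and 358 in stn7-1, against 232, 223 and 238 in Col-0. Those 2 groups did not overlap, and the change was 0.36 (SE 0.14, adjusted p = 0.0814). AT3G49910, of the family whose protein sits near the exit of the tunnel, had a change of 0.45 (adjusted p = 0.0686), and AT1G80750 one of 0.51 (adjusted p = 0.0652). AT4G02230 (L19) had the smallest change among those that passed, 0.37 (SE 0.10, adjusted p = 0.0186).

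How many members passed changed when single arrays were left out. Fewer arrays lower the precision for every probe set. The shares of all tested probe sets that passed in these fits are not given, here or below. Without Col-0 array B 16 of the 33 passed in stn7-1, and without stn7-1 array B also 16. The median change without 1 array lay between 0.63 and 0.81. Col-0 array B was the lowest Col-0 array for 31 of the 33 members, as it was for 43.5% of all tested probe sets, and the members' median there was -0.21 relative to the Col-0 mean. The control probe set for 25S ribosomal RNA read 522 on that array, 1077 and 1198 on the other Col-0 arrays, and 1328 to 2128 on the 8 mutant arrays of the first set. The ratio of 3′ to 5′ probe sets, a measure of RNA integrity and of labelling, parted the groups for actin, with 2.18 to 2.57 in stn7-1 against 2.64 to 3.39 in Col-0. It overlapped for GAPDH (1.44 to 1.66 against 1.56 to 2.30) and for UBQ (1.505 to 1.605 against 1.372 to 1.562). The part of these controls in the members' changes was not tested. The members' median relative to the Col-0 mean was 0.57, 0.91 and 0.76 on the stn7-1 arrays, against 0.14, -0.21 and 0.07 on the Col-0 arrays.

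**Figure D1:**
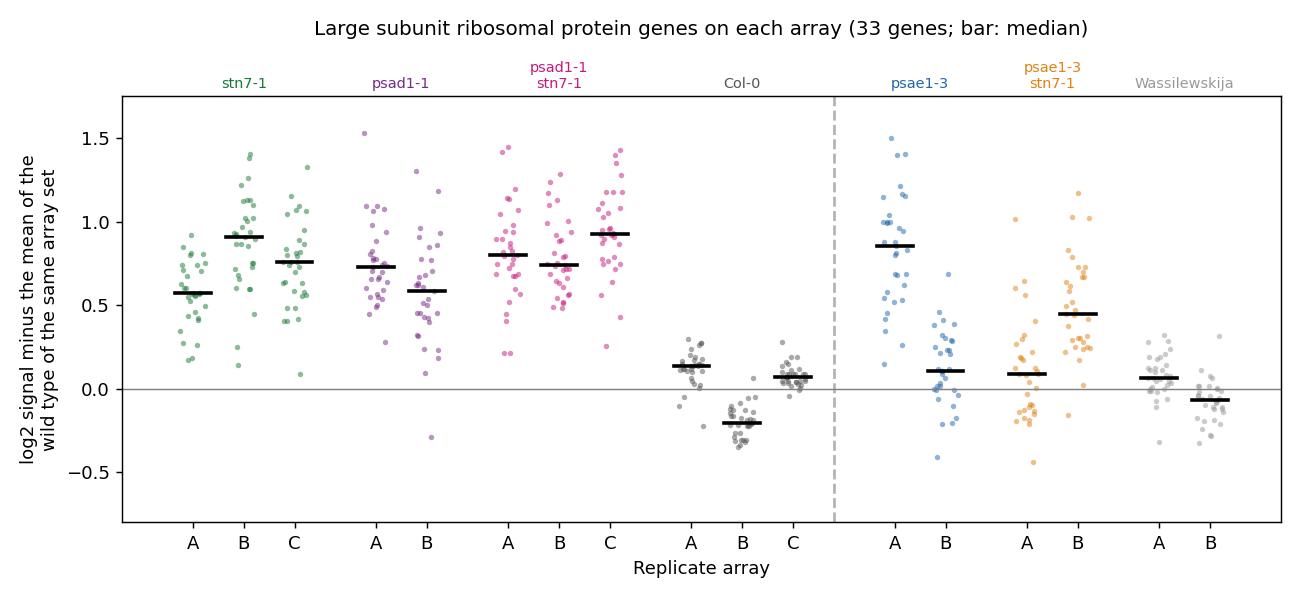
Each point is 1 of the 33 tested genes on 1 array, as its log2 signal minus the mean log2 signal of the wild type of the same array set (vertical axis); black bars are medians, and the dashed line parts the 2 array sets. All 8 mutant arrays of the first set have medians of 0.57 or more, while in the second set psae1-3 array A stands at 0.85 and psae1-3 array B at 0.11.

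In psad1-1, 28 of 33 members passed as higher than in Col-0 and 0 as lower by limma, and at an unadjusted p below 0.05 29 were higher and 0 lower (23.2% of all tested probe sets were higher). This comparison moved much of the transcriptome: 19.3% of all tested probe sets passed as higher, 21.1% as lower and 40.5% in either direction. The members' median change was 0.63, against -0.02 over all tested probe sets. Both psad1-1 arrays lay above all Col-0 arrays for 31 members, as they did for 29.1% of all tested probe sets. The same Col-0 arrays serve all 3 comparisons of the first set, so these comparisons are not independent of each other.

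AT2G44120 (L7) again had the highest change, 1.42 (SE 0.27, adjusted p = 0.000527), with 984 and 838 in psad1-1 against the Col-0 signals given above. AT5G22440 (L10a) read 277 and 301 in psad1-1 and changed by 1.12 (SE 0.23, adjusted p = 0.00108). AT3G07110 (L13a) read 1109 and 1012 in psad1-1, against 571, 474 and 515 in Col-0, and rose by 1.03 (SE 0.30, adjusted p = 0.0114). For these 3 genes neither psad1-1 array came near the range of the Col-0 arrays. AT4G17390 (L15), with 1333 and 1207 in psad1-1, rose by 1.00 (SE 0.24, adjusted p = 0.00333).

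Besides AT3G49910 and AT1G80750, the members that did not pass in psad1-1 were AT4G27090 and AT2G20450 (both L14) and AT4G13170 (L13a). AT4G27090 read 2014 and 1357 in psad1-1, and its 2 arrays lay on either side of the Col-0 median (change -0.01, SE 0.16, adjusted p = 0.977). AT2G20450 read 261 and 179 in psad1-1, against 200.4, 131 and 178 in Col-0, and the groups overlapped (change 0.37, SE 0.27, adjusted p = 0.292). AT4G13170 read 359.7 and 279 in psad1-1, against 272, 229 and 238 in Col-0, without overlap (change 0.37, SE 0.19, adjusted p = 0.132). The 2 psad1-1 arrays were unequal: array A was the higher for 27 of 33 members, against 48.1% of all tested probe sets. Without psad1-1 array A 11 members passed, without Col-0 array B 16, and the median change without 1 array lay between 0.56 and 0.73. With no filter on dim probe sets 18 passed.

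The double mutant psad1-1 stn7-1 had the most members that passed as higher, with 3 arrays where psad1-1 had 2. Set directly against stn7-1 2 members passed, and against psad1-1 0, as given below. Against Col-0, 32 of 33 passed as higher and 0 as lower by limma, where 19.2% of all tested probe sets passed as higher, 21.6% as lower and 40.8% in either direction. Without adjustment, 33 were higher and 0 lower at p below 0.05, against 22.5% of all tested probe sets higher. The median change was 0.84, against -0.02 over all tested probe sets, and 32 members had all double mutant arrays above all Col-0 arrays, as did 24.6% of all tested probe sets. The 3′ to 5′ ratio of UBQ was 1.59 to 1.68 in psad1-1 stn7-1, against 1.37 to 1.56 in Col-0, and its part in these changes was not tested. Leaving out 1 array left between 27 and 32 passing and a median of 0.71 to 0.90.

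AT2G44120 read 909.7, 827 and 916 in psad1-1 stn7-1, against 391, 278 and 362 in Col-0, a change of 1.38 (SE 0.24, adjusted p = 0.000235). AT2G37190 (L12, which in yeast lies at the base of the stalk that binds elongation factors) read 1380.5, 1016 and 1291 in psad1-1 stn7-1, against 555, 434 and 536 in Col-0, and rose by 1.27 (SE 0.23, adjusted p = 0.000309). In both genes every double mutant array was above every Col-0 array by a wide gap. AT5G22440 read 304, 298 and 349 in psad1-1 stn7-1 and rose by 1.25 (SE 0.21, adjusted p = 0.000149). AT3G14600 (L18a) read 797, 794 and 821 in psad1-1 stn7-1, against 351, 342 and 398 in Col-0, and rose by 1.15 (SE 0.17, adjusted p = 6.17e-05). Its double mutant arrays were close together, at 804 ± 14.5 against 364 ± 30.2 in Col-0 (SD, n = 3 each).

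At the low end in the double mutant, AT2G47610 (L7a) rose by 0.49 (SE 0.16) and AT4G13170 (L13a) by 0.47 (SE 0.17). AT4G27090 (L14) was the 1 member that did not pass, with 1924, 2377 and 1983 in psad1-1 stn7-1, against 1426, 1597 and 2015 in Col-0 (change 0.33, SE 0.15, adjusted p = 0.0866). The highest Col-0 array of this gene stood above 2 of the 3 double mutant arrays.

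**Figure D2:**
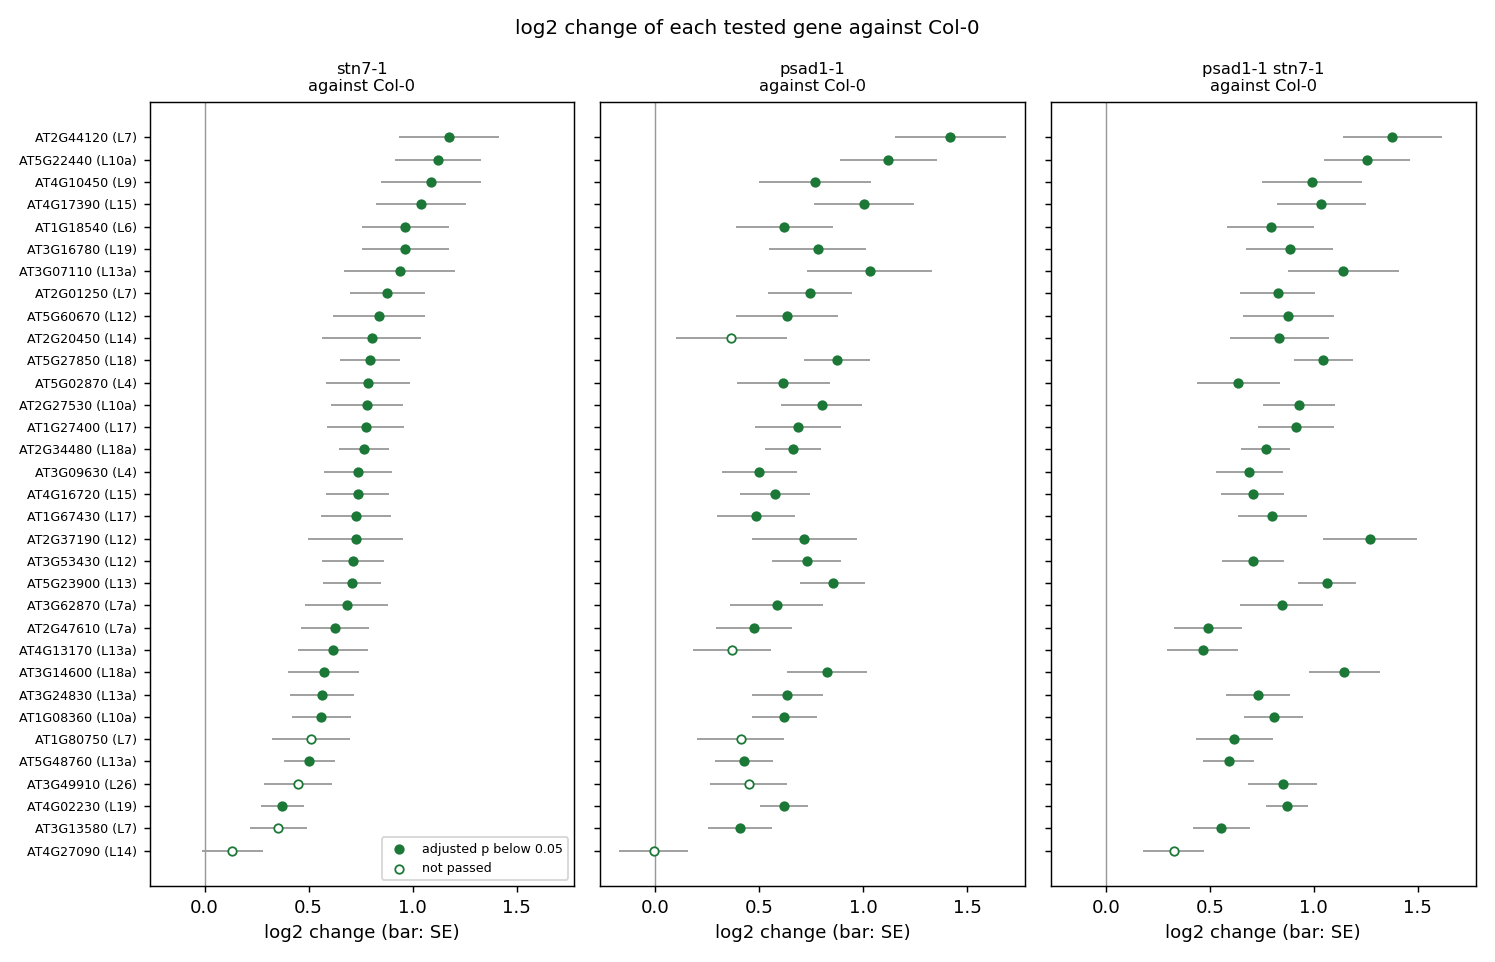
Fitted log2 change (horizontal axis) of each of the 33 tested genes in stn7-1, psad1-1 and psad1-1 stn7-1 against Col-0, with the standard error as a bar; filled points passed at an adjusted p below 0.05. Genes are in the order of their change in stn7-1, and AT4G27090 stands at the bottom in all 3 panels, with changes of 0.13, -0.01 and 0.33.

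The members of a paralogous family did not change by the same amount, and the families are set side by side here without a test of their differences. The L7 family spread most widely in the comparisons with Col-0. In stn7-1 its 4 genes ranged from 0.36 (AT3G13580) to 1.17 (AT2G44120), with AT1G80750 at 0.51 and AT2G01250 at 0.88. In psad1-1 they ranged from 0.41 to 1.42 and in psad1-1 stn7-1 from 0.56 to 1.38, with the same 2 genes at the ends. Of the L10a genes, AT1G08360 had the lowest change in each of the 3 mutants (0.56, 0.62 and 0.81), AT2G27530 lay between (0.78, 0.80 and 0.93), and AT5G22440 had the highest (1.12, 1.12 and 1.25). AT2G27530 is PGY1, known from leaf polarity mutants.

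The 2 L14 genes parted as well. AT2G20450 rose by 0.80 in stn7-1 and 0.84 in psad1-1 stn7-1, where AT4G27090 had 0.13 and 0.33. The L13a genes ran from 0.50 (AT5G48760) to 0.94 (AT3G07110) in stn7-1, and from 0.47 (AT4G13170) to 1.14 (AT3G07110) in psad1-1 stn7-1. The L12 genes were close in stn7-1 (0.71 to 0.84) and in psad1-1 (0.63 to 0.73) and wider in psad1-1 stn7-1 (0.71 to 1.27). The 2 genes of L4, which lines the exit tunnel, stood at 0.74 and 0.78 in stn7-1, 0.50 and 0.62 in psad1-1, and 0.69 and 0.64 in psad1-1 stn7-1, in the order AT3G09630 and AT5G02870. The 2 genes of L17, another tunnel protein, stood at 0.77 and 0.73, 0.69 and 0.48, and 0.92 and 0.80, in the order AT1G27400 and AT1G67430.

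Setting the double mutant against its single parents showed few further differences. Against stn7-1, 2 members passed as higher and 0 as lower (28.0% of all tested probe sets passed in either direction), and the median change was 0.11. At an unadjusted p below 0.05 5 of 33 were higher and 0 lower, a share close to the 18.1% of all tested probe sets that were higher. The 2 that rose were AT3G14600 (L18a) by 0.57 (SE 0.17, limma adjusted p = 0.0195) and AT4G02230 (L19) by 0.50 (SE 0.10, adjusted p = 0.00167). AT4G02230 read 635, 665 and 666 in psad1-1 stn7-1, against 433, 487 and 473 in stn7-1, without overlap. AT3G14600 read 486, 549.7 and 589.6 in stn7-1, below its double mutant signals given above, and it no longer passed without stn7-1 array A (1 member then passed) or without psad1-1 stn7-1 array C (again 1).

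Against psad1-1, 0 members of the double mutant passed by limma, against 2.09% of all tested probe sets in either direction. The median change was 0.17, 31 of 33 changes were above 0, and at an unadjusted p below 0.05 3 members were higher and 0 lower, where 8.09% of all tested probe sets were higher. The largest change, 0.55 (SE 0.25), belonged to AT2G37190 (L12), whose psad1-1 signals were 998 and 692.

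Whether stn7-1 had the same effect with and without psad1-1 was tested as an interaction, the change of psad1-1 stn7-1 against psad1-1 minus that of stn7-1 against Col-0. A negative value means that the effect was smaller in the psad1-1 background. The value was below 0 for 32 of 33 members, with a median of -0.55, against 0.01 over all tested probe sets. By limma 0 members passed above 0 and 4 below it, where 6.0% of all tested probe sets passed below 0, 5.8% above it and 11.8% in either direction. Without adjustment, 16 were below 0 and 0 above at p below 0.05, where 14.1% of all tested probe sets were below 0.

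The 4 were AT2G34480 (L18a), AT2G44120 (L7), AT3G53430 (L12) and AT5G22440 (L10a). AT2G34480 read 1900.1, 1754 and 2023 in psad1-1 stn7-1, 1809.9 and 1707 in psad1-1, 1714, 2127 and 1836 in stn7-1, and 1200.3, 992 and 1146 in Col-0. The 3 mutants thus shared one range above Col-0, and the interaction was -0.66 (SE 0.18, adjusted p = 0.0268). For AT2G44120 the effect of stn7-1 was -0.04 in the psad1-1 background and 1.17 in the Col-0 background, an interaction of -1.21 (SE 0.36, adjusted p = 0.0381). AT3G53430 had -0.02 and 0.71, an interaction of -0.73 (SE 0.22, adjusted p = 0.0419). AT5G22440 had 0.13 and 1.12, an interaction of -0.99 (SE 0.31, adjusted p = 0.0487).

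None of the 4 interactions held in every alternative setting. The number of members that passed was 0 without Col-0 array B, without psad1-1 array A, without psad1-1 array B, without psad1-1 stn7-1 array B and without stn7-1 array B. It was 1 without Col-0 array C or psad1-1 stn7-1 array A, and 2 without stn7-1 array C. It was 15 in a fit of the first array set alone and 9 with arrays scaled to their median, which moved the median of all probe sets by -0.14.

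**Figure D3:**
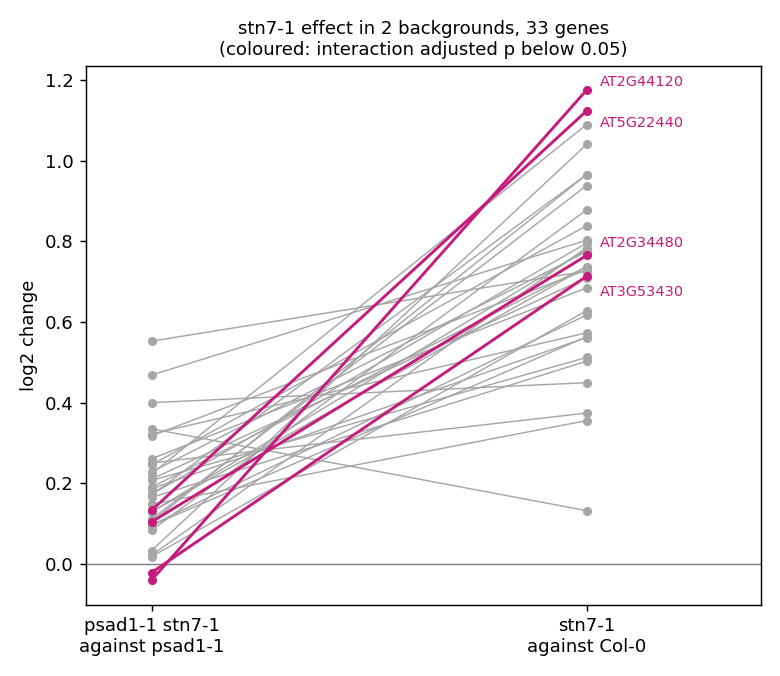
Each line joins the log2 effect (vertical axis) of stn7-1 in the psad1-1 background (left) and in the Col-0 background (right) for 1 of the 33 tested genes. The left points lie between -0.04 and 0.55 and the right points between 0.13 and 1.17, and the 4 coloured genes passed the interaction.

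In the second array set fewer large subunit genes passed, and the difference from the first set was not tested. In psae1-3, 5 of 33 members passed as higher than in Wassilewskija and 0 as lower by limma, where 5.42% of all tested probe sets passed as higher, 6.9% as lower and 12.3% in either direction. Without adjustment, 16 were higher and 0 lower at p below 0.05, against 10.6% of all tested probe sets higher. The median change was 0.47, against -0.11 over all tested probe sets, and 32 of 33 changes were above 0. Both psae1-3 arrays lay above both Wassilewskija arrays for 19 members, against 20.3% of all tested probe sets. With arrays scaled to their median, which moved the median of all probe sets by 0.17, 12 members passed.

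The 5 that rose were AT2G20450 (L14), AT1G18540 (L6), AT5G22440 (L10a), AT3G24830 (L13a) and AT2G34480 (L18a). AT2G20450 read 171 and 97.4 in psae1-3, against 48.6 and 75.4 in Wassilewskija, a change of 1.09 (SE 0.29, adjusted p = 0.0223). AT1G18540 read 513 and 236 in psae1-3, against 222 and 169.9 in Wassilewskija, a change of 0.84 (SE 0.26, adjusted p = 0.0422). AT5G22440 read 189 and 108 in psae1-3, against 88.7 and 74.9 in Wassilewskija, a change of 0.81 (SE 0.25, adjusted p = 0.0464). In all of them psae1-3 array A was far above array B, and array B was above both Wassilewskija arrays.

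AT3G24830 rose by 0.65 (SE 0.19, adjusted p = 0.0347) and AT2G34480 by 0.61 (SE 0.15, adjusted p = 0.014). AT4G17390 (L15) had a change of 0.81 (SE 0.26) that did not pass (adjusted p = 0.054), with 833 and 509 in psae1-3, against 452 and 304 in Wassilewskija. The lowest changes were those of AT4G02230 (L19) at -0.03, AT1G08360 (L10a) at 0.14 and AT3G09630 (L4) at 0.16.

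The 2 psae1-3 arrays differed for every member. Array A was the higher for 33 of 33, against 47.1% of all tested probe sets. On array A the members' median was 0.85 above the Wassilewskija mean and all 33 lay above both Wassilewskija arrays, as did 28.9% of all tested probe sets. On array B the median was 0.11, with 19 members above both wild-type arrays, 8 between them and 6 below, where 30.2% of all tested probe sets were above both. The 3′ to 5′ ratio was 1.61 for GAPDH on array A and 2.54 on array B, and 1.87 and 2.97 for actin. Over the Wassilewskija arrays it was 1.69 to 2.12 for GAPDH and 1.92 to 2.01 for actin. Its part in the members' signals was not tested. Without array B 20 members passed with a median of 0.85, and without array A 0 passed with a median of 0.11. Without Wassilewskija array A, or without array B of that wild type, 1 member passed.

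In psae1-3 stn7-1, 2 of 33 members passed as higher than in Wassilewskija and 0 as lower by limma. That share is close to the 7.43% of all tested probe sets that passed as higher, with 8.79% lower and 16.2% in either direction. Without adjustment, 9 were higher and 0 lower at p below 0.05, against 12.8% of all tested probe sets higher. The median change was 0.24, against -0.05 over all tested probe sets. The arrays did not overlap for 17 members, 16 of them higher and 1, AT4G02230 (L19), lower, where 24.7% of all tested probe sets were higher and 32.8% lower without overlap. AT4G02230 read 368 and 365 in psae1-3 stn7-1, against 389 and 425 in Wassilewskija (change -0.15, SE 0.13, adjusted p = 0.473). The 3′ to 5′ ratio of actin was 2.58 and 2.41 in psae1-3 stn7-1, against 2.01 and 1.92 in Wassilewskija, and that of UBQ 1.156 and 1.243 against 1.279 and 1.3003. Neither pair of groups overlapped, and the part of these ratios in the members' signals was not tested.

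AT1G18540 (L6) read 393 and 438 in psae1-3 stn7-1, against 222 and 169.9 in Wassilewskija, and rose by 1.09 (SE 0.26, adjusted p = 0.00767). AT5G48760 (L13a) read 135 and 148 in psae1-3 stn7-1, against 91.9 and 86.6 in Wassilewskija, and rose by 0.67 (SE 0.15, adjusted p = 0.00631). In both genes the 2 psae1-3 stn7-1 arrays lay above both Wassilewskija arrays. AT2G20450 (L14, change 0.84, adjusted p = 0.0608) and AT5G22440 (L10a, change 0.67, adjusted p = 0.0833) did not pass. At the low end were AT3G53430 (L12) at -0.02 and AT3G62870 (L7a) at 0.00. The mean signal of AT5G48760 was 89.2 in Wassilewskija, 142 in psae1-3 stn7-1 and 170 in Col-0. For AT1G18540 the means were 196, 415 and 485 in that order, and for AT2G20450 62.0, 109 and 170. AT3G53430 went the other way, with 1170, 1165 and 960. In psae1-3 the means were 101 for AT5G48760, 375 for AT1G18540 and 134 for AT2G20450, also between the 2 wild types. That of AT3G53430 was 1352 in psae1-3, above both wild types. The median of the tested members' means was 329 in Wassilewskija and 520 in Col-0. A rise over Wassilewskija can therefore place a gene between the 2 wild types. The labels do not give the parents of the double mutant, and Col-0 was in the other array set. The part of accession in these changes was not tested. Array B of psae1-3 stn7-1 had 31 members above both Wassilewskija arrays and a median of 0.45, and array A had 16 above, 10 below and a median of 0.09. Over all tested probe sets, 33.9% lay above both on array B and 35.3% on array A. Without array B 0 members passed, and without Wassilewskija array B 1 passed.

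AT1G18540 also passed in each mutant of the first set, whose comparisons share the Col-0 arrays. Its signals were 785, 1056 and 1009 in stn7-1, 714 and 772 in psad1-1, 808, 792 and 913 in psad1-1 stn7-1, against 535, 415 and 505 in Col-0, and no mutant array overlapped with Col-0. The changes were 0.97 (SE 0.21, adjusted p = 0.00546), 0.62 (SE 0.23, adjusted p = 0.044) and 0.79 (SE 0.21, adjusted p = 0.00615) in that order.

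Against psae1-3, the double mutant psae1-3 stn7-1 had 1 member that passed as higher and 0 as lower by limma, where 7.48% of all tested probe sets passed as higher, 4.81% as lower and 12.3% in either direction. Without adjustment, 1 was higher and 3 were lower at p below 0.05, against 14% of all tested probe sets higher and 11.4% lower. That member was AT5G48760 (L13a), at 135 and 148 in psae1-3 stn7-1, against 107 and 95.9 in psae1-3 (change 0.48, SE 0.15, adjusted p = 0.0478). It did not pass under most other settings. The median change was -0.18, against 0.01 over all tested probe sets, and it followed the psae1-3 arrays: without psae1-3 array A it was 0.10 with 2 members higher, and without psae1-3 array B -0.53 with 6 members lower.

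**Figure D4:**
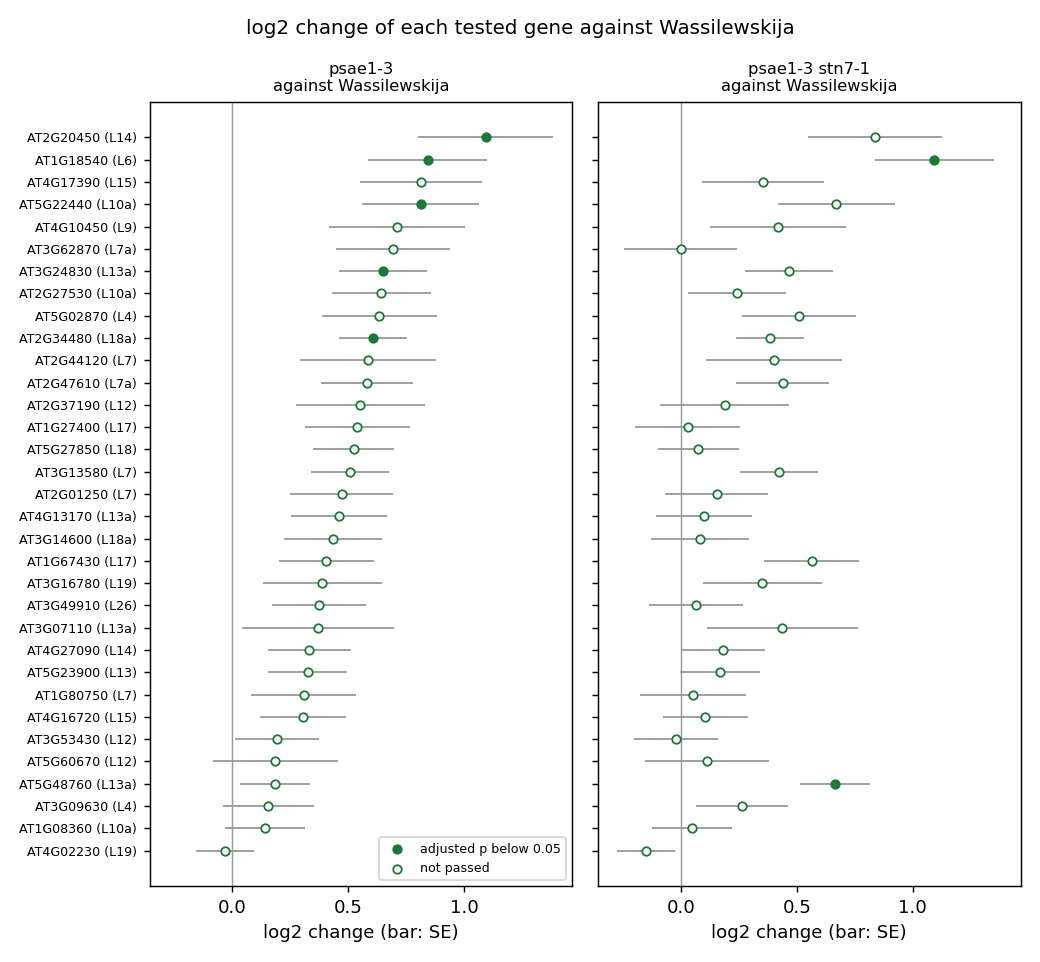
Fitted log2 change (horizontal axis) of each of the 33 tested genes in psae1-3 and psae1-3 stn7-1 against Wassilewskija, with the standard error as a bar; filled points passed at an adjusted p below 0.05. In psae1-3 5 genes passed and in psae1-3 stn7-1 2 passed, with AT1G18540 in both.

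**Figure D5:**
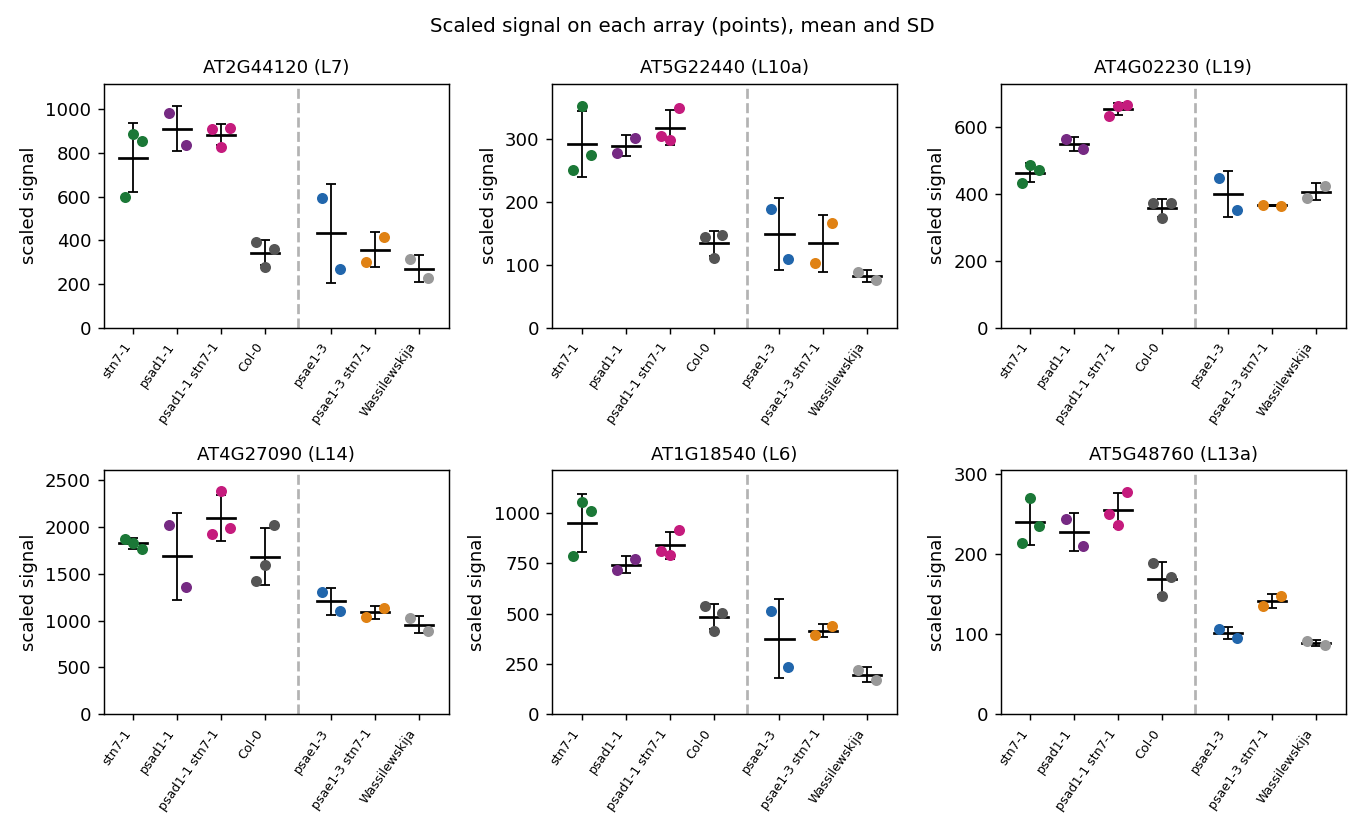
Scaled signal (vertical axis, from 0) on each array for 6 genes, with the mean and SD of each genotype; the dashed line parts the 2 array sets. AT2G44120 and AT5G22440 stand above Col-0 on all mutant arrays of the first set, AT4G02230 is highest in psad1-1 stn7-1 with means of 655 there and 359 in Col-0, AT4G27090 overlaps with Col-0, and AT1G18540 and AT5G48760 are above Wassilewskija on both psae1-3 stn7-1 arrays.

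Other parts of the translation machinery were read from lists chosen with earlier results of these data known, each without a test over the list. Their counts stand beside the shares of all tested probe sets that passed as higher, which were 9.74% in stn7-1, 19.3% in psad1-1, 19.2% in psad1-1 stn7-1, 5.42% in psae1-3 and 7.43% in psae1-3 stn7-1. Of 40 tested small subunit genes, 31 passed as higher in stn7-1, 21 in psad1-1 and 33 in psad1-1 stn7-1 against Col-0, with medians of 0.66, 0.60 and 0.83. AT4G39200, AT3G02560 and AT1G15930 had the largest changes there, with 1.55, 1.26 and 1.25 in psad1-1 stn7-1. AT5G39850 was the 1 small subunit gene that passed as lower, by 1.20 in psad1-1 and by 1.23 in psad1-1 stn7-1, and it is named for that. In psad1-1 35 of the 40 changes were above 0. Against Wassilewskija 3 small subunit genes passed in psae1-3 and 1 in psae1-3 stn7-1.

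The remaining large subunit genes, from L27 upwards with the P proteins and a few others, had 40 tested. Of these 40, 13 passed as higher in stn7-1, 9 in psad1-1 and 34 in psad1-1 stn7-1, with medians of 0.51, 0.37 and 0.83. The count in psad1-1 was close to the 19.3% of all tested probe sets. Here too 1 gene, AT3G02190, passed as lower in psad1-1 (by 0.78), where 35 of the 40 changes were above 0. In the double mutant against psad1-1 their median was 0.46 with 0 passing by limma and 20 at an unadjusted p below 0.05, where the 33 members had a median of 0.17. The difference between these lists was not tested.

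Of 8 tested ribosome biogenesis genes, which process ribosomal RNA and assemble the subunits, 7 passed as higher in stn7-1, 5 in psad1-1 and 5 in psad1-1 stn7-1. AT1G52930 rose by 1.02, 0.86 and 1.22 in these mutants, AT2G40360 by 0.65, 1.18 and 0.90, and AT3G03920 by 1.02 in stn7-1 and 0.92 in psad1-1. In psae1-3 0 of the 8 passed by limma (3 at an unadjusted p below 0.05), and in psae1-3 stn7-1 AT1G52930 did. All 7 tested nuclear genes of plastid ribosomal proteins passed as higher in stn7-1, in psad1-1 stn7-1 and in psae1-3, 6 of 7 in psad1-1 and 1 in psae1-3 stn7-1. Their median on psae1-3 array B was 0.73 and on array A 0.75, where that of the 33 members was 0.11 and 0.85.

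Cytosolic translation factors were covered by 4 tested genes. AT2G40290 and AT5G19510 passed as higher in all 3 mutants of the first set, AT1G54270 in stn7-1 and psad1-1, and AT5G12110 fell by 3.38 in psad1-1 and by 3.41 in psad1-1 stn7-1. Of the TOR and SnRK1 list, which holds kinases and partners that adjust translation to nutrients and energy, 2 genes were tested, and RAPTOR2 (AT5G01770) fell by 0.57 in psad1-1 stn7-1. Of 15 markers of dividing cells 1 was tested, PRL (AT4G02060), a subunit of the replicative helicase. It rose by 0.81 in stn7-1 (adjusted p = 0.00857) and by 0.64 in psad1-1 stn7-1 (adjusted p = 0.0133), and had 0.47 in psad1-1 (adjusted p = 0.0946). Against Wassilewskija PRL had 0.06 in psae1-3 and 0.38 in psae1-3 stn7-1, where the members' medians were 0.47 and 0.24. Between psae1-3 stn7-1 and psae1-3 it had 0.33, where the members' median was -0.18. PRL passed in none of these comparisons of the second set. It is a single marker, and its part in the members' changes was not tested.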

How the data were processed

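Expression was measured on ATH1 arrays, and the deposited values are signal intensities on a linear scale that the authors made with GCOS and MAS5, per the submitters' processing notes, with their versions not given in the sources used here. Each array was scaled to a 2% trimmed mean of 100, the 10th percentile of all scaled signals (1.57) served as a floor, and log2 values were taken. After 64 control probe sets and the dimmest 40% were left out, 13647 probe sets on the 17 arrays were fitted together by limma 3.58.1 under R 4.3.3 (1 mean per genotype, moderated variances with a trend, 10 residual and 6.04 prior degrees of freedom), in place of any model of the authors, which the labels do not state. The fit and the threshold were tested on simulated log2 values, and the scaling, floor, filter and matching of genes were not. Python 3.11.15 with pandas 2.3.3 made the summaries. Genes came from the platform annotation: 13513 probe sets had 1 gene, 503 several and 8730 no name.

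The members and lists were chosen with earlier results of these data known. Named genes are, per comparison with a wild type, the 4 highest and 3 lowest members, those passing the interaction, paralogue families of 3 or more with the widest spread, and up to 3 genes per other list; others are named with the count they belong to or were chosen after their values were seen. The rule also took the 3 highest and 3 lowest signals, which are not ranked here. Replicates are arrays that the labels call biological pools. Same-lettered arrays deviated together at correlations of -0.22 to 0.27 over 19 pairs. These pairs are not independent: where both genotypes have 2 arrays, both letters give the same value. The check therefore cannot exclude a pairing by letter, and the main fit does not pair the arrays. Alternatives were other scalings, floors and filters, no variance trend, 1 array set alone, the letter as a block and each array left out.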

Additional observations from a re-analysis of the deposited data

Results flagged for a closer look

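For 4 of the 33 members the effect of stn7-1 differed between the psad1-1 and Col-0 backgrounds by the limma test of that difference. Over all tested probe sets 11.8% passed in either direction and 6.0% below 0, the side of all 4. None of the 4 held in every alternative setting. The difference, psad1-1 background minus Col-0 background on the log2 scale, was -0.66 for AT2G34480 (adjusted p = 0.0268), -1.21 for AT2G44120 (adjusted p = 0.0381), -0.73 for AT3G53430 (adjusted p = 0.0419) and -0.99 for AT5G22440 (adjusted p = 0.0487). For each of them the change of stn7-1 against Col-0 passed by itself and that of psad1-1 stn7-1 against psad1-1 did not. This does not set the 4 apart, since 29 of 33 members passed in the first comparison and 0 in the second. Both effects share arrays with the other comparisons of the first set.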

How the results depend on the processing

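Of the single-gene results under other settings, 2421 kept their side of the threshold, 180 no longer passed, 39 newly passed and 0 changed sign after passing. A change of sign counted as kept where the gene passed in neither setting. Of the counts of members, 91 stayed within 1.5 times, 34 fell and 7 rose beyond it. Of the median changes 108 moved by less than the spread between arrays, 3 moved by more and 1 changed sign. That spread was 0.26, which is above the median change of 0.24 in psae1-3 stn7-1 against Wassilewskija. With the letter as a replicate block, 1 member passed the interaction, 3 in psae1-3 against Wassilewskija and 0 in psae1-3 stn7-1 against psae1-3. With no variance trend these 3 counts were 0, 2 and 0, with 1 array set alone 15, 2 and 0, with no filter on dim probe sets 0, 1 and 0, and scaling to the array median gave 9 and 12 for the first 2. Quantile normalization gave 0 for psae1-3 stn7-1 against psae1-3. For psad1-1 against Col-0 no filter gave 18, and for psad1-1 stn7-1 against stn7-1 it gave 1 and 1 array set alone 4. Leaving out 1 array gave counts of 16 to 29 for stn7-1, 11 to 25 for psad1-1 and 27 to 32 for psad1-1 stn7-1 against Col-0, 0 to 20 for psae1-3 and 0 to 3 for psae1-3 stn7-1 against Wassilewskija, 1 to 2 for psad1-1 stn7-1 against stn7-1, 0 to 6 for psae1-3 stn7-1 against psae1-3 and 0 to 6 for the interaction. The median change then ran from 0.11 to 0.85 in psae1-3, and for psae1-3 stn7-1 against psae1-3 from -0.53 to 0.10, changing sign at 0.10 without psae1-3 replicate A. Of the members that passed, 16 of 29 in stn7-1, 10 of 28 in psad1-1 and 27 of 32 in psad1-1 stn7-1 did so in every setting. In psae1-3 0 of 5 did so, and in psae1-3 stn7-1 0 of 2. Scaling to the array median put the share of higher calls among all calls at 71.7% in stn7-1 (51.5% otherwise), 63.6% in psad1-1 (47.8%), 58.0% in psad1-1 stn7-1 (47.1%) and 77.5% in psae1-3 (44.0%), and moved the median of all probe sets by 0.09, 0.14, 0.09 and 0.17. The causes of these moves were not tested. Averaging several probe sets of a gene was not run, since no member has more than 1.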
